A study of Mus musculus with 27 samples.

Results

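Serpina6 and 5 further genes that sense or activate glucocorticoids or respond to them were followed through the lobule of the mouse liver in pregnancy. They are 6 of the 21823 genes in the expression table, were picked by symbol, and all 6 passed the filter on low values that left 12952 genes. They were chosen from earlier results of the same 27 libraries over all 9 groups, so their levels, their differences and the separation of their groups are given as a description and carry no p-value. RNA of liver zones 1, 2 and 3 was sequenced after laser microdissection, which cuts chosen areas out of frozen tissue under a microscope. Zone 1 surrounds the portal vein, zone 3 surrounds the central vein, and zone 2 is the stretch that separates them. All libraries are labelled as wild type (WT) females of the strain C57BL/6, and the mice were non-pregnant (NP) or at day 8 (dpc8) or day 16 (dpc16) post coitum, with 3 libraries for each stage and zone. The labels name no transgene and no agent, and they give no age. They do not say whether libraries of a group came from separate animals. The paper describes its zone heatmaps as coming from 3 independent experiments, without saying which libraries share a mouse. The p-values measure the spread between these libraries, which may be technical.

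Glucocorticoids such as corticosterone circulate largely bound to corticosteroid-binding globulin, a plasma protein that hepatocytes secrete and that Serpina6 encodes. In the hepatocyte, 11-beta-hydroxysteroid dehydrogenase type 1 (Hsd11b1) regenerates the active steroid from its inert 11-keto form, and it draws its NADPH from hexose-6-phosphate dehydrogenase (H6pd) inside the endoplasmic reticulum. The glucocorticoid receptor (Nr3c1) waits in the cytosol in a complex with heat shock proteins, binds the hormone and moves to the nucleus, where it induces genes such as Fkbp5, Tsc22d3 and Dusp1 and many genes of gluconeogenesis and amino acid breakdown.

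Values are FPKM, fragments scaled to the length of the transcript and to the size of the library, and differences are on the log2(FPKM + 1) scale with the standard error (SE) of a limma fit over all 27 libraries. The sequencing depth, estimated from the steps between low values, was 7350000 to 32540000 reads per library, and the FPKM of a library summed to 499866 to 988500. The zone labels followed their markers. The summed FPKM of 8 periportal markers was 3000 to 6699 in the zone 1 libraries of all stages and 112 to 1047 in those of zone 3, and that of 8 pericentral markers was 243 to 465 and 6824 to 18291. A set of 6 libraries stood apart, with a Y-linked FPKM of 7.92 to 23.2 against at most 2.97 in the other 21, although every library is labelled female. The mean log2(FPKM + 1) of 12 connective tissue and smooth muscle genes was 5.37 to 6.84 in these 6 and 1.75 to 4.49 in the others. They are replicate 1 of zone 1 and replicate 2 of zone 3 in NP, replicate 1 of zone 1 and replicate 2 of zone 2 at dpc8, and replicate 3 of zones 2 and 3 at dpc16. The differences of the 6 genes are given with and, as the reduced set, without these libraries. A fit with the connective tissue mean as a covariate gave dpc16 minus NP differences in zones 1, 2 and 3 of 6.37, 5.73 and 4.62 for Serpina6, -0.56, -0.65 and -0.55 for Nr3c1 and 1.05, 0.80 and 0.84 for Hsd11b1. It gave 1.20, 1.30 and 1.39 for Fkbp5, -0.05, -0.95 and -0.62 for Tsc22d3 and -1.18, -0.24 and -0.47 for Dusp1. Among these 18 values, that of Tsc22d3 in zone 1 differs in sign from the fit without the covariate. In bulk RNA, fewer cells of a type and less RNA per cell cannot be told apart.

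The promoters of 4 members were in the RefSeq promoter table (GRCm38.p6), and those of Serpina6 and Nr3c1 were not. Letters searched on both strands in the 250 bases before the start were TGTTCT, an arm of the glucocorticoid response element, its full palindrome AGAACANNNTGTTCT, TTCNNNGAA, the palindrome that STAT factors bind, GTTAAT, an arm of the hepatocyte factor HNF1 element, and AGGTCA, the core that many nuclear receptors share. They are present in 16.03%, 0.00922%, 7.04%, 6.47% and 14.0% of 32536 different promoters. A palindrome match contains a match of its arm, and matches stand in capitals below. The first 2 sequences belong to the members that were higher at dpc16 in zone 1, the next to a receptor target with several starts, and the last to Serpina16, the neighbour of Serpina6 described further on.
Hsd11b1, chr1:193242361-193242610, minus strand: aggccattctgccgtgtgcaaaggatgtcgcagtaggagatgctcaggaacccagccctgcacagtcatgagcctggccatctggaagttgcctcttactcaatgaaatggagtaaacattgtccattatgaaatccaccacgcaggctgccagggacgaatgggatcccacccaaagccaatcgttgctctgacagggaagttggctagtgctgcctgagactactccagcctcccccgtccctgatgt
Fkbp5, chr17:28486150-28486399, minus strand: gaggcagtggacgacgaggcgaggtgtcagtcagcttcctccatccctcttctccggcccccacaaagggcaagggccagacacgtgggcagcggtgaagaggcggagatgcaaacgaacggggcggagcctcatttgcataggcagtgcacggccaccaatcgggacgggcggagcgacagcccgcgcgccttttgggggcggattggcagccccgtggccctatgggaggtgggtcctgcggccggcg
Tsc22d3, the most distal of 3 starts, chrX:140600523-140600772, minus strand: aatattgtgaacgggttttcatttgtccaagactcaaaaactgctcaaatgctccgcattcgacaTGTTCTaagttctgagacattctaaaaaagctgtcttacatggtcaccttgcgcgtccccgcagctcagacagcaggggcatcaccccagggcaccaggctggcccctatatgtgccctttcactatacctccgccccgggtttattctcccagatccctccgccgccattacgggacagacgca
Serpina16, chr12:103676763-103677012, minus strand: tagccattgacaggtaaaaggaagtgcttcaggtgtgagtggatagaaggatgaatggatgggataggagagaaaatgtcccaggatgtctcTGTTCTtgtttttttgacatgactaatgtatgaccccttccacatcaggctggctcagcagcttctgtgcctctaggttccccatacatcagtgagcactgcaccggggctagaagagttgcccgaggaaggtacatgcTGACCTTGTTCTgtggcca
None of the searched letters occurred in the windows of Hsd11b1, Fkbp5, Dusp1 and the first Tsc22d3 start. The second Tsc22d3 start held TTCNNNGAA at 207 to 199 bases, and the most distal one held TGTTCT at 185 to 180 bases before the start. That of Serpina16 held it at 158 to 153 and at 13 to 8 bases, the latter directly after AGGTCA on the opposite strand at 19 to 14 bases, without overlap. The GC content was 54.4% for Hsd11b1, 68.0% for Fkbp5, 52.4% for this Tsc22d3 start and 49.2% for Serpina16. A match is a string of letters and not a measured binding site.

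Serpina6, the carrier gene, was highest in zone 3 by its mean in NP and at dpc8 and one of the most abundant transcripts of the liver at dpc16. Serpina6 (ENSMUSG00000060807.7, chr12:103646630-103657212, minus strand, mm10) was at 231, 99.6 and 328 FPKM in zone 1, 528, 178 and 178 FPKM in zone 2 and 728, 294 and 680 FPKM in zone 3 of NP liver (replicates 1, 2 and 3). At dpc8 it was at 168, 126 and 144 FPKM in zone 1, 402, 155 and 256 FPKM in zone 2 and 649, 421 and 457 FPKM in zone 3. At dpc16 it was at 16842, 15322 and 24153.5 FPKM in zone 1, 18982.5, 16742 and 7090.2 FPKM in zone 2 and 15930.5, 13795 and 10775 FPKM in zone 3. Each of the 9 dpc16 libraries lay above each of the 18 other libraries, and the lowest dpc16 value came from a library with Y-linked RNA. By its FPKM, Serpina6 ranked 110th to 802nd among all genes in NP, 134th to 647th at dpc8 and 3rd to 6th at dpc16. It made up 0.0158% to 0.120% of the FPKM sum in NP, 0.0222% to 0.103% at dpc8 and 1.35% to 2.75% at dpc16.

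**Figure D1:**
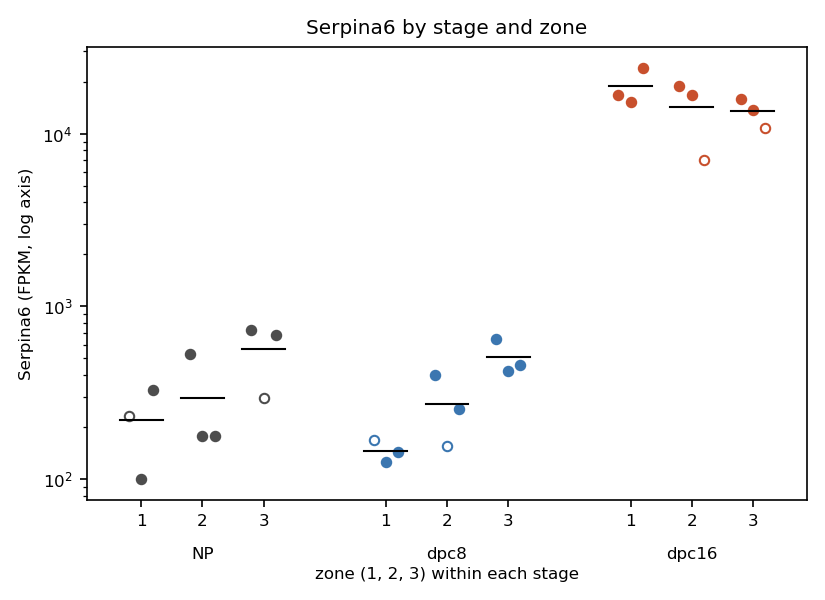
Serpina6 in FPKM on a log axis for each of the 27 libraries, by stage and zone, with the group mean as a bar and open circles for the 6 libraries with Y-linked RNA. The 9 dpc16 libraries lie between 7090.2 and 24153.5 FPKM, above all others, and zone 3 has the highest mean in NP and at dpc8.

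The fold over NP was 85.4 in zone 1, 48.4 in zone 2 and 23.8 in zone 3, or 87.8, 60.6 and 21.1 without the libraries with Y-linked RNA. On the log2 scale the dpc16 minus NP difference was 6.54 ± 0.49 (SE, n = 3 per group) in zone 1, 5.67 ± 0.49 in zone 2 and 4.66 ± 0.49 in zone 3. Rescaling every library to the same FPKM sum made these 5.93, 5.39 and 4.38, and quantile normalization made them 5.68, 5.35 and 4.35, so the order of the zones was kept. Scaled to the same sum, the median difference of all genes between dpc16 and NP was -0.57 in zone 1, -0.20 in zone 2 and -0.21 in zone 3, while with the deposited values all 9 comparisons had medians within -0.05 to 0.08. The median of zone 1 minus zone 3 became 0.19 at dpc8 and -0.29 at dpc16. Between dpc8 and NP the Serpina6 difference was -0.43 ± 0.49 in zone 1, -0.02 ± 0.49 in zone 2 and -0.07 ± 0.49 in zone 3, and the groups overlapped in each zone. In the reduced set it was -0.42, 0.33 and -0.49, and the dpc8 libraries of zone 3 lay below those of NP without overlap. The zone 2 value also turned to 0.07 with the same sum. Against dpc8, the dpc16 means were 128-fold higher in zone 1, 52.6-fold in zone 2 and 26.5-fold in zone 3, or 139-fold, 54.3-fold and 29.2-fold in the reduced set.

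Serpina6 had its highest mean in zone 3 in NP and at dpc8 and in zone 1 at dpc16. In NP the mean was 220 ± 115 FPKM in zone 1, 295 ± 202 in zone 2 and 568 ± 238 in zone 3 (SD, n = 3), and the zone 1 and zone 3 libraries overlapped. The NP mean of zone 2 rests on replicate 1 at 528 FPKM, and by the median zone 2 (178 FPKM) was below zone 1 (231 FPKM). At dpc8 the means were 146 ± 21.2, 271 ± 124 and 509 ± 123 FPKM, and all zone 3 libraries lay above all libraries of zones 1 and 2. The zone 1 minus zone 3 difference was -1.42 ± 0.49 in NP and -1.78 ± 0.49 at dpc8, or -1.95 and -1.88 without the libraries with Y-linked RNA, and in that reduced set the NP groups did not overlap either. At dpc16 the means were 18773 ± 4722, 14272 ± 6319 and 13500.1 ± 2591 FPKM in zones 1, 2 and 3, and no pair of zones was apart, except that zone 2 lay above zone 3 in the reduced set. The zone 1 minus zone 3 difference was then 0.47 ± 0.49, or 0.31 in the reduced set, and it became 0.13 with all libraries scaled to the same sum and 0.00 after quantile normalization, which gives genes of the same rank the same value. Same-numbered libraries were read as pairs at dpc16, although the labels do not state this. Zone 1 was above zone 3 in all 3 pairs, by 0.08, 0.15 and 1.16 for replicates 1, 2 and 3. The zone 3 library of the last pair is one with Y-linked RNA. Of the other members, Hsd11b1 and Tsc22d3 were higher in zone 1 in 3 of 3 such pairs, Dusp1 in 2 and Nr3c1 and Fkbp5 in 1. Against zone 2, Serpina6 was higher in zone 1 in 1 of 3 pairs. That pair was replicate 3, whose zone 2 library has Y-linked RNA.

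Nr3c1, the glucocorticoid receptor (ENSMUSG00000024431.15, chromosome 18), had similar means in the 3 zones and lower ones at dpc16. It was at 23.4, 33.6 and 40.4 FPKM in zone 1, 36.2, 33.3 and 24.5 in zone 2 and 35.1, 26.2 and 37.0 in zone 3 of NP liver. The dpc8 libraries lay between 22.9 and 35.9 FPKM, with differences to NP of -0.24 ± 0.24, -0.12 ± 0.24 and -0.09 ± 0.24 in zones 1, 2 and 3. In the reduced set these were -0.34, -0.03 and -0.24, and zone 1 of dpc8 lay below that of NP without overlap. At dpc16 it was at 20.6, 19.2 and 32.9 FPKM in zone 1, 23.5, 20.5 and 13.4 in zone 2 and 22.9, 23.8 and 20.7 in zone 3. The dpc16 libraries of zones 2 and 3 were all below those of NP and of dpc8, while replicate 3 of zone 1 reached into the NP range. The dpc16 minus NP difference was -0.41 ± 0.24 in zone 1, -0.70 ± 0.24 in zone 2 and -0.51 ± 0.24 in zone 3, and -0.62, -0.48 and -0.61 without the libraries with Y-linked RNA, where the groups were apart in each zone. Scaled to the same sum the differences were -1.01, -0.99 and -0.79, in the direction of the shift of all genes under that scaling. Zones 1 and 3 differed by -0.03 ± 0.24 in NP, -0.18 ± 0.24 at dpc8 and 0.07 ± 0.24 at dpc16, the last turning to -0.25 with the same sum, and by 0.03, -0.08 and 0.01 in the reduced set.

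Hsd11b1, the enzyme that regenerates active glucocorticoid (ENSMUSG00000016194.14, chr1:193221634-193264075, minus strand), was highest in zone 1 at every stage by its mean and higher at dpc16 than in NP. In NP it was at 295, 470 and 635 FPKM in zone 1, 450.0, 358 and 440.4 in zone 2 and 278, 235 and 317 in zone 3. At dpc8 it was at 242, 459 and 475 FPKM in zone 1, 340.4, 284 and 492 in zone 2 and 185, 269 and 295 in zone 3. At dpc16 it was at 1488, 1067 and 1154 FPKM in zone 1, 1176, 868 and 274 in zone 2 and 726, 619 and 332 in zone 3. All dpc16 libraries of zones 1 and 3 lay above those of the earlier stages, and in zone 2 the single library at 274 FPKM, which has Y-linked RNA, reached into their range. The dpc16 minus NP difference was 1.46 ± 0.42 in zone 1, 0.66 ± 0.42 in zone 2 and 0.95 ± 0.42 in zone 3. Without the libraries with Y-linked RNA it was 1.16, 1.28 and 1.17, and the groups were apart in all 3 zones, while the same sum gave 0.84, 0.37 and 0.67. The dpc8 minus NP difference was -0.25 ± 0.42, -0.19 ± 0.42 and -0.16 ± 0.42, or -0.22, -0.02 and -0.28 in the reduced set, with overlap in each zone. The summed FPKM of 8 hepatocyte markers went from 47757 to 120715 (median 72526) in NP to 59864 to 262146 (median 213925) at dpc16. Albumin alone had a median of 44042 FPKM in NP and 151511 FPKM at dpc16. Ttr, transthyretin, also among the 8, was lower at dpc16 in zones 2 and 3, so the sum does not describe each marker. The part of these markers in the Hsd11b1 difference was not tested. Zone 1 exceeded zone 3 by 0.69 ± 0.42 in NP, 0.61 ± 0.42 at dpc8 and 1.20 ± 0.42 at dpc16, and the zones were apart at dpc16. In the reduced set the excess was 0.88, 0.93 and 0.87 and the zones were apart at each stage.

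H6pd, which feeds this enzyme with NADPH (chr4:149979475-150009023), was not among the members. Its mean was 89.6, 118 and 99.5 FPKM in zones 1, 2 and 3 of NP and 221, 179 and 211 FPKM at dpc16. The zone 1 libraries were apart, at 72.8 to 114 FPKM in NP and 206 to 242 FPKM at dpc16. Over all genes, limma gave dpc16 against NP an adjusted p of 0.151 in zone 1, 0.744 in zone 2 and 0.333 in zone 3, and without the libraries with Y-linked RNA 0.00675, 0.0162 and 0.0041. In zones 2 and 3 those libraries held the lowest dpc16 values, 59.7 and 104 FPKM. Hsd11b2, the enzyme that inactivates the hormone in kidney and placenta, was listed at 0.381 FPKM or less in every library and did not pass the filter.

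**Figure D2:**
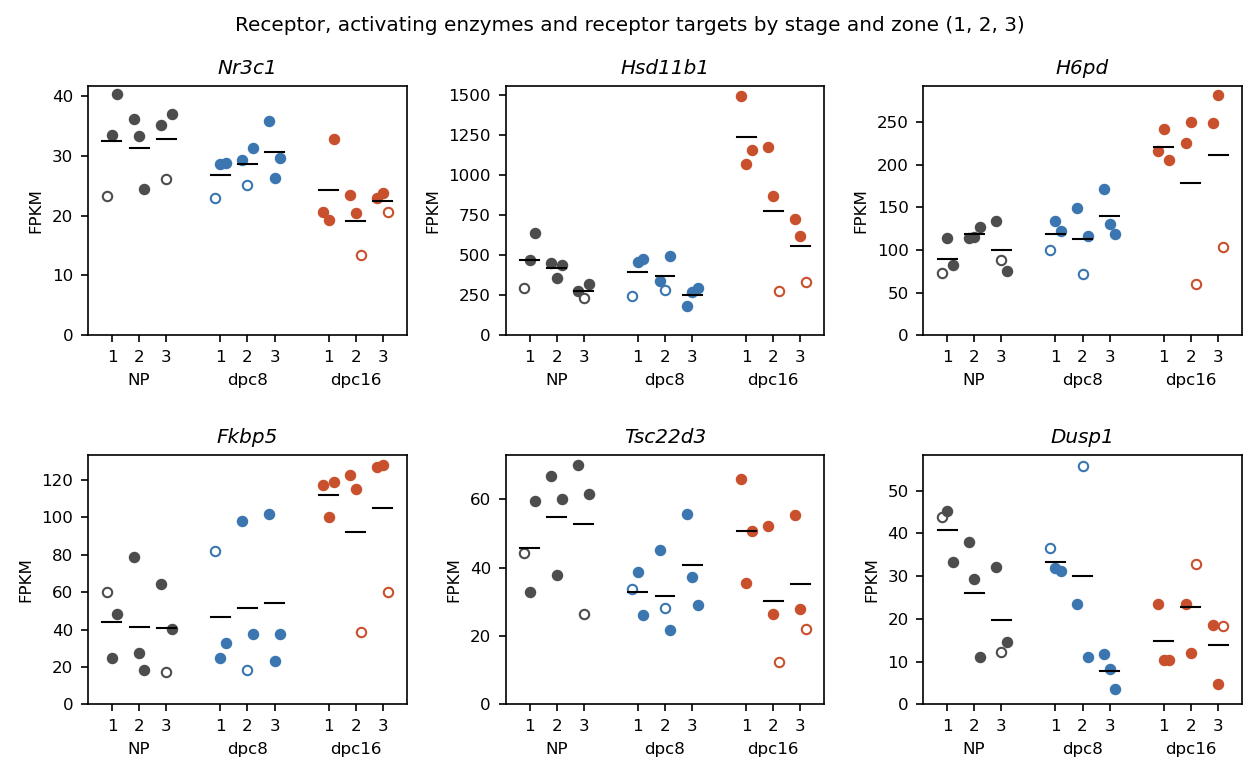
FPKM of Nr3c1, Hsd11b1, H6pd, Fkbp5, Tsc22d3 and Dusp1 in each of the 27 libraries by stage and zone (1, 2 and 3), with group means as bars and open circles for the 6 libraries with Y-linked RNA; all axes start at 0. Hsd11b1 reaches 1067 to 1488 FPKM in zone 1 at dpc16, and the open circles at dpc16 are the lowest of their groups for Nr3c1, Hsd11b1, H6pd, Fkbp5 and Tsc22d3.

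Fkbp5 encodes an immunophilin that binds the receptor complex and lowers its affinity for hormone, and its transcription is a common readout of receptor activity. It lies at chr17:28399094-28517527 on the minus strand (ENSMUSG00000024222.17). In NP it was at 59.9, 24.8 and 48.2 FPKM in zone 1, 79.0, 27.3 and 18.3 in zone 2 and 64.2, 17.4 and 40.5 in zone 3. At dpc8 it was at 81.8, 25.0 and 32.9 FPKM in zone 1, 97.9, 18.5 and 37.6 in zone 2 and 102, 23.2 and 37.5 in zone 3. Replicate 1 was the highest of each of these 6 groups. At dpc16 it was at 117, 100.04 and 119 FPKM in zone 1, 123, 115 and 38.6 in zone 2 and 127, 128 and 59.9 in zone 3. All libraries of zone 1 at dpc16 were above those of NP and dpc8, and in zones 2 and 3 the library with Y-linked RNA fell within the earlier range. The dpc16 minus NP difference was 1.40 ± 0.66 in zone 1, 1.23 ± 0.66 in zone 2 and 1.44 ± 0.66 in zone 3, or 1.66, 1.77 and 1.30 in the reduced set, where the groups were apart in each zone. The dpc8 minus NP difference was -0.03 ± 0.66, 0.26 ± 0.66 and 0.32 ± 0.66 in zones 1, 2 and 3, and -0.26, 0.81 and -0.18 in the reduced set, so that zone 3 turned sign. Zone 1 minus zone 3 was 0.21 ± 0.66 in NP, -0.13 ± 0.66 at dpc8 and 0.17 ± 0.66 at dpc16, and -0.54, -0.62 and -0.19 in the reduced set, where zone 1 lay below zone 3 without overlap at dpc16. The dpc16 value also turned to -0.16 with the same sum, and the dpc8 minus NP value of zone 1 to 0.07.

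Tsc22d3 encodes the glucocorticoid-induced leucine zipper, a mediator of the anti-inflammatory action of the hormone (ENSMUSG00000031431.13, chrX:140539528-140600659, minus strand). It was at 44.3, 33.0 and 59.6 FPKM in zone 1, 66.9, 37.9 and 60.03 in zone 2 and 70.1, 26.5 and 61.7 in zone 3 of NP liver. At dpc8 the libraries lay between 21.9 and 55.8 FPKM. At dpc16 it was at 66.0, 35.5 and 50.6 FPKM in zone 1, 52.1, 26.5 and 12.4 in zone 2 and 55.6, 28.0 and 22.0 in zone 3. With all libraries, the groups overlapped in every comparison of stages and zones. Between same-numbered libraries at dpc16, zone 1 was above zone 3 in 3 of 3 pairs and above zone 2 in 3 of 3 pairs. The dpc16 minus NP difference was 0.15 ± 0.45 in zone 1, -1.01 ± 0.45 in zone 2 and -0.57 ± 0.45 in zone 3, or 0.14, -0.51 and -0.72 without the libraries with Y-linked RNA, and the value of zone 1 turned to -0.46 with the same sum. The dpc8 minus NP difference was -0.44 ± 0.45, -0.79 ± 0.45 and -0.30 ± 0.45 in zones 1, 2 and 3, or -0.46, -0.74 and -0.73 in the reduced set. Zone 1 minus zone 3 was -0.13 ± 0.45 in NP, -0.26 ± 0.45 at dpc8 and 0.58 ± 0.45 at dpc16, or -0.56, -0.29 and 0.31 in the reduced set. In the reduced set zone 3 of both pregnant stages lay below that of NP without overlap, and zone 1 of NP below zone 3 of NP. The dpc16 minus NP differences of Fkbp5 and Tsc22d3, both known targets of the receptor, had opposite signs in zones 2 and 3.

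Dusp1 encodes a phosphatase that switches off MAP kinases and is induced both by glucocorticoids and, as an immediate early gene, by growth factors and stress (ENSMUSG00000024190.7, chr17:26505590-26562128, minus strand). It was at 43.9, 45.3 and 33.4 FPKM in zone 1, 38.1, 29.2 and 11.0 in zone 2 and 32.1, 12.4 and 14.6 in zone 3 of NP liver. At dpc8 it was at 36.6, 31.8 and 31.3 FPKM in zone 1, 23.4, 55.7 and 11.1 in zone 2 and 11.8, 8.27 and 3.60 in zone 3. At dpc16 it was at 23.4, 10.3 and 10.4 FPKM in zone 1, 23.5, 12.1 and 32.7 in zone 2 and 18.5, 4.83 and 18.4 in zone 3. Zone 1 was above zone 3 without overlap in NP and at dpc8, and the zones overlapped at dpc16. The zone 1 minus zone 3 difference was 1.12 ± 0.57 in NP, 2.06 ± 0.57 at dpc8 and 0.17 ± 0.57 at dpc16, or 0.81, 1.99 and 0.46 in the reduced set, and the dpc16 value turned to -0.14 with the same sum. The dpc16 minus NP difference was -1.50 ± 0.57 in zone 1, with no overlap, and the dpc8 minus NP difference was -1.22 ± 0.57 in zone 3, again with no overlap. The other differences of Dusp1 between pregnant stages and NP lay between -0.55 and 0.08. In the reduced set, dpc8 minus NP was -0.29, -0.49 and -1.47 and dpc16 minus NP was -1.44, -0.44 and -1.09 in zones 1, 2 and 3, and zone 1 of dpc8 also lay below NP without overlap. The 10 immediate early genes of a list had a median zone 1 minus zone 3 difference of 0.88 in NP, 1.45 at dpc8 and 0.29 at dpc16. None of them passed limma's adjusted threshold of 0.05 in these comparisons, with 3, 5 and 0 at an unadjusted p under 0.05 beside 8.02%, 12.2% and 7.86% of all genes, and their part in the Dusp1 pattern was not tested. Their median dpc16 minus NP difference was -0.67 in zone 1, where Dusp1 was lower, 0.42 in zone 2 and 0.11 in zone 3. At the estimated depth the lowest Dusp1 value rests on 10.4 to 99.5 reads, depending on the transcript counted.

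**Figure D3:**
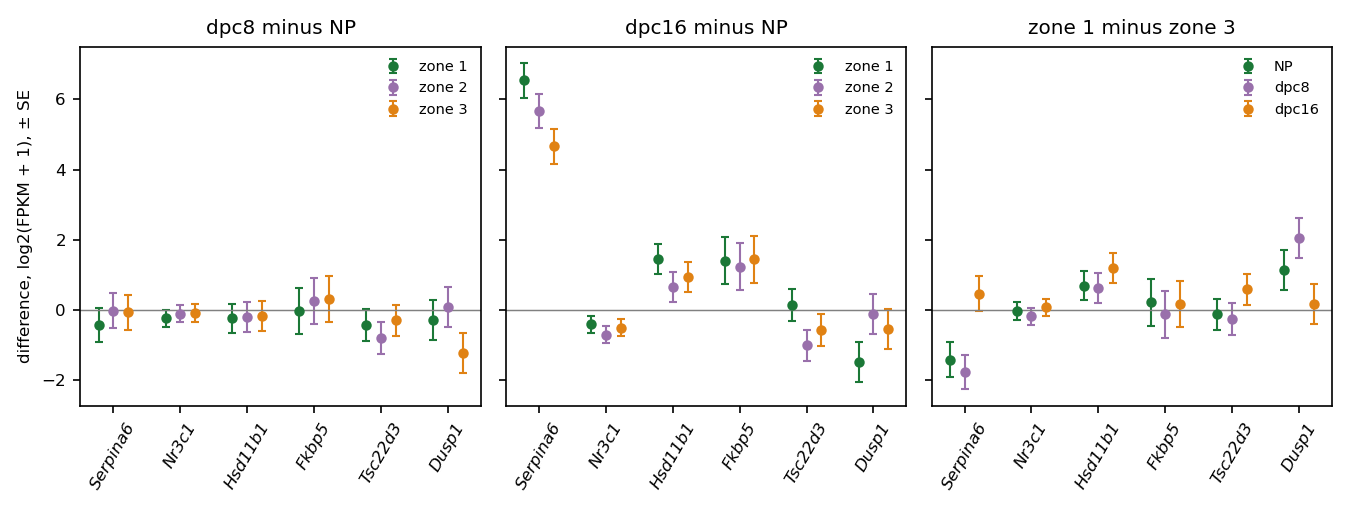
Differences of log2(FPKM + 1) with their SE for the 6 genes, for dpc8 minus NP, dpc16 minus NP and zone 1 minus zone 3. Serpina6 stands at 4.66 to 6.54 in the dpc16 panel, while the other 5 genes lie between -1.50 and 1.46 there.

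Counted over the 6 genes, the groups of dpc8 and NP overlapped for all 6 in zones 1 and 2 and for 5 in zone 3, where Dusp1 was lower. The background, the share of all 12952 genes whose groups did not overlap in either direction, was 6.52%, 10.0% and 9.81% in these zones. At dpc16 against NP, the higher members numbered 3, 1 and 2 in zones 1, 2 and 3 and the lower ones 1 in each zone, with a background of 17.4%, 17.4% and 16.7%. In zone 1 the higher ones were Serpina6, Hsd11b1 and Fkbp5, and the lower one was Dusp1. In zones 2 and 3 Nr3c1 was the lower one, and Hsd11b1 joined Serpina6 in zone 3. Between zones 1 and 3, Dusp1 was higher in zone 1 in NP and at dpc8, Serpina6 lower at dpc8 and Hsd11b1 higher at dpc16, with a background of 12.7%, 23.2% and 14.7% in NP, dpc8 and dpc16. These shares are printed for orientation, since the same contrasts were in view when the genes were picked.

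Within groups, Serpina6 and Fkbp5 varied together. The deviations of log2(FPKM + 1) from the group means had r = 0.87 over the 27 libraries for this pair, 0.73 for Serpina6 and Tsc22d3, 0.65 for Fkbp5 and Tsc22d3 and 0.60 for Serpina6 and Nr3c1. For Hsd11b1 it was 0.59 with Nr3c1, 0.52 with Tsc22d3, 0.40 with Serpina6 and 0.19 with Fkbp5. These coefficients are across libraries that share stage, zone and tissue makeup, and they are descriptions. In NP, replicate 1 held 59.9 to 79.0 FPKM of Fkbp5 over the 3 zones and replicate 2 held 17.4 to 27.3, while Dbp, an output gene of the circadian clock, was at 43.3 to 91.3 and at 0.366 to 0.727 FPKM in the same libraries. At dpc8 replicate 1 held 81.8 to 102 FPKM of Fkbp5 and 28.8 to 79.7 of Dbp, and replicate 2 held 18.5 to 25.0 and 17.8 to 34.4. At dpc16 replicates 1 and 2, with Fkbp5 at 100.04 to 128 FPKM, had Dbp at 9.75 to 30.7 FPKM. Replicate 3 held 18.3 to 48.2 FPKM of Fkbp5 and 1.04 to 106 of Dbp in NP, 32.9 to 37.6 and 24.2 to 34.2 at dpc8, and 38.6 to 119 and 31.3 to 99.0 at dpc16, where the lowest Fkbp5 of the stage was in its zone 2 library and the highest Dbp in its zone 1 library. The part of the clock genes in the spread of Fkbp5 was not tested.

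Over the 27 libraries the genes with the pattern most like Serpina6 were Ghr, the growth hormone receptor (r = 0.98), Colgalt2, a collagen galactosyltransferase (0.96), Serpina16 (0.95), Tmem64 (0.95) and Klk1b4, a kallikrein (0.95). The dpc16 step that was in view when Serpina6 was picked enters each of these coefficients, which are descriptions. Ghr lay between 121 and 325 FPKM in NP, 104 and 282 at dpc8 and 730 and 2391 at dpc16. Colgalt2 lay between 0 and 0.713 FPKM in NP, 0.0849 and 0.9996 at dpc8 and 3.27 and 9.76 at dpc16. Like Serpina16, it passed the filter through the dpc16 libraries. Tmem64 went from 9.80 to 17.5 FPKM in NP to 48.1 to 206 at dpc16, and Klk1b4, one of a family of near-identical kallikrein genes and therefore uncertain, from 0.479 to 2.35 FPKM to 25.2 to 70.9. Nr3c1 was most like Pdk2, a kinase that inhibits pyruvate dehydrogenase (0.93), Gpt, alanine aminotransferase (0.91), and Slc25a23 (0.90). Hsd11b1 was most like Alb, serum albumin (0.95), Serpina1b (0.95) and Serpina1d (0.94), the last 2 being near-identical copies between which reads cannot be split with certainty. Fkbp5 was most like Il6ra, a chain of the interleukin 6 receptor (0.90), 1810055G02Rik (0.90) and Herpud1, a gene of the unfolded protein response (0.87). Tsc22d3 was most like Klf15, a transcription factor of fasting metabolism (0.85), Oaf (0.83) and Hexim1 (0.83), and Dusp1 like Hes1, a Notch target (0.74), Zfp319 (0.72) and Psmc3ip (0.71).

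Serpina6 sits in a cluster of clade A serpin genes on chromosome 12, and the gene that starts 18.9 kb from its own start was above 0 in the dpc16 libraries alone. Serpina16 (chr12:103668808-103676139, minus strand) was listed at 0 in all 18 NP and dpc8 libraries and at 3.17 to 11.0 FPKM in the 9 dpc16 libraries. It passed the filter through the dpc16 libraries, so no test against NP is given. It was higher in zone 1 than in zone 3 at dpc16 by 1.07 ± 0.24 (limma adjusted p = 0.0155), a call that was lost, with limma adjusted p between 0.0558 and 0.128, without replicate 3 of zone 1 or replicates 1 or 2 of zone 3, and also with the same sum (limma adjusted p = 0.175), with a pseudocount of 0.1 (0.410) and with the compared groups alone (0.161). The SE of 0.24 comes from all 9 groups, of which 6 are at 0 throughout and have no spread. The window of 200 kb was chosen after these values were seen, and it held 7 other genes, of which 6 passed the filter. Leaving Serpina16 aside, those that passed the test at dpc16, where 1.37%, 2.66% and 1.32% of all genes did in zones 1, 2 and 3, were Serpina1b in zone 1 (1.67, limma adjusted p = 0.037), a near-copy of its neighbours and uncertain, and Ppp4r4, a phosphatase regulatory subunit, in zone 2 (2.38, limma adjusted p = 0.0056). Serpina10, the protein Z-dependent inhibitor, 25.8 kb to the other side of Serpina6, had a median of 123 FPKM in NP, 146 at dpc8 and 240.5 at dpc16 and did not pass (limma adjusted p = 0.14, 0.50 and 0.48 in zones 1, 2 and 3). Serpina1f was at 0.135 FPKM or less in every library.

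**Figure D4:**
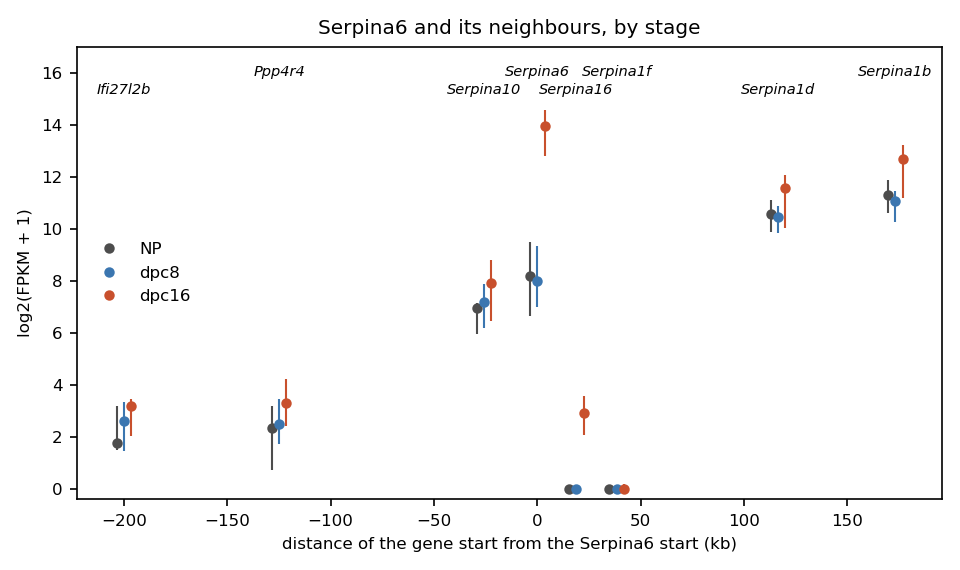
Serpina6 and the genes whose starts lie within 200 kb of its start, by distance in kb, as log2(FPKM + 1): points are medians and lines the range over the 9 libraries of each stage. Serpina16, at 18.9 kb, is at 0 in NP and dpc8 and above 0 in every dpc16 library.

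The wider pathway was read from 4 lists with 63 tested genes beside the members: 20 of the receptor complex and its coregulators, 11 of corticosteroid metabolism and export, 26 glucocorticoid-induced genes and 6 inflammatory genes repressed by the hormone. At dpc8 against NP none passed limma's adjusted threshold of 0.05 in any zone, while 3, 6 and 3 of them had an unadjusted p under 0.05 in zones 1, 2 and 3, or 4.76%, 9.52% and 4.76% beside 3.13%, 5.06% and 2.74% of all genes. The share of all genes that passed the adjusted threshold was 0.0309%, 0.00772% and 0.0154%. At dpc16 against NP none passed in zone 1, 3 passed in zone 2 and none passed in zone 3, with 8, 8 and 10 at an unadjusted p under 0.05, or 12.7%, 12.7% and 15.9% beside 11.0%, 16.6% and 11.5% of all genes. The share of all genes that passed the adjusted threshold was 1.37%, 2.66% and 1.32%. The counts at dpc16 in zones 1, 2 and 3 were 2, 8 and 4 with the same sum, 5, 6 and 6 with array weights, and 1, 4 and 4 without the libraries with Y-linked RNA. The share of all genes called was then also higher, at 5.67%, 8.77% and 4.81% with the same sum, 5.15%, 8.5% and 5.99% with array weights, and 2.92%, 4.45% and 3.61% without those libraries.

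In zone 2 at dpc16 the genes that passed were the metallothioneins Mt1 and Mt2, metal-binding proteins induced by glucocorticoids and by zinc, and Ncoa3, a receptor coactivator. Mt2 was at 31.1 to 460 FPKM in NP and 696 to 2594 FPKM at dpc16, without overlap, a difference of 3.17 ± 0.76 (limma adjusted p = 0.022). Mt1 was at 91.5 to 510.5 FPKM in NP and 489 to 2787 FPKM at dpc16, with overlap, a difference of 2.63 ± 0.71 (limma adjusted p = 0.048). Ncoa3 fell by 1.11 ± 0.28, from 10.5 to 13.2 FPKM in NP to 4.45 to 5.83 FPKM at dpc16 (limma adjusted p = 0.033). Each of these 3 calls was lost when single libraries were left out. Those of Mt1 and Mt2 were lost without replicate 3 of NP or replicates 1 or 2 of dpc16, and that of Mt1 also without replicate 2 of NP. That of Ncoa3 was lost without replicates 2 or 3 of NP or any of the dpc16 libraries. The median difference of the 26 induced genes was 0.25, -0.05 and 0.29 in zones 1, 2 and 3, beside -0.05, 0.04 and 0.01 for all genes tested. The median of the 11 genes of steroid metabolism was -0.26, -0.35 and -0.53, and that of the 20 genes of the receptor complex was 0.00, -0.04 and 0.11. The 6 repressed inflammatory genes had medians of -0.41, -0.02 and 0.05.

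**Figure D5:**
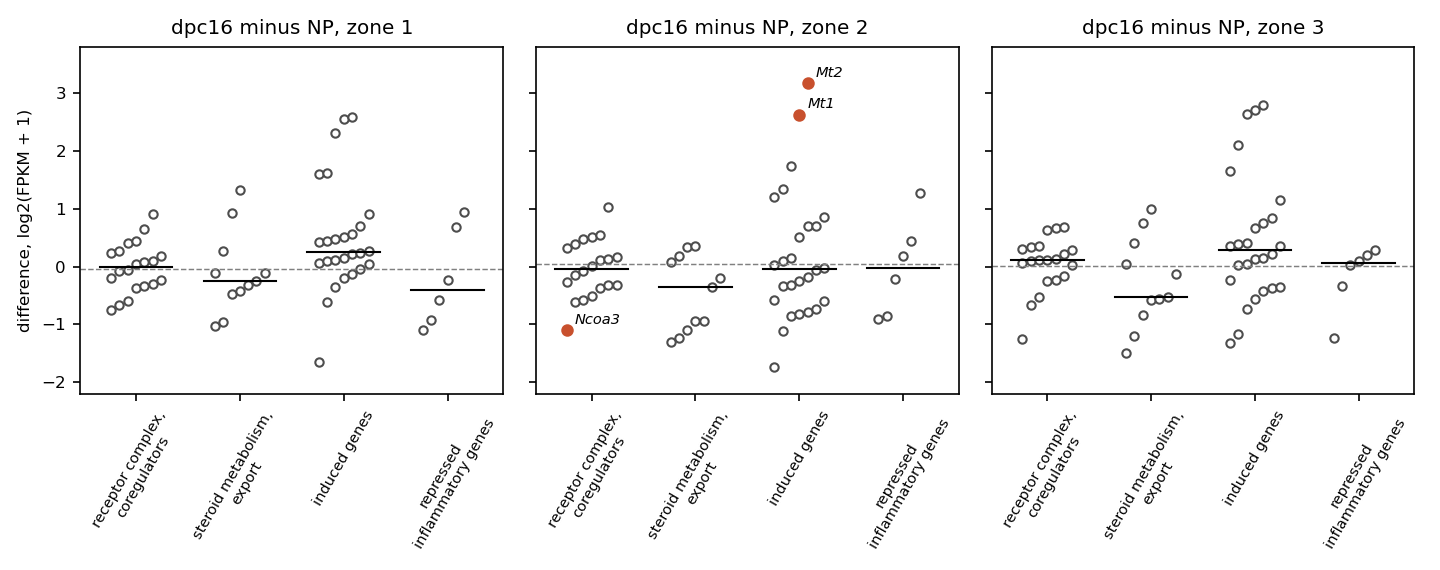
Differences dpc16 minus NP of log2(FPKM + 1) for the tested genes of the 4 pathway lists in zones 1, 2 and 3, with list medians as lines, filled points for genes past limma's adjusted threshold and the median of all genes as a dashed line. Mt1, Mt2 and Ncoa3 in zone 2 are the filled points, and the medians of the lists lie between -0.53 and 0.29.

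The genes named whatever their values did not pass limma's threshold with all libraries. Tat, tyrosine aminotransferase, had means of 1002, 995 and 655 FPKM in zones 1, 2 and 3 of NP, 511, 535 and 434 at dpc8 and 1485, 1184 and 1204 at dpc16. In zone 1 it lay below NP at dpc8, at 474 to 534 FPKM against 909 to 1139, and above NP at dpc16, at 1228 to 1794 FPKM, without overlap. Pck1, the rate-limiting enzyme of gluconeogenesis, had means of 1404, 1149 and 643 FPKM in NP and 1426, 787 and 442 at dpc16. Neither passed in any of the 9 comparisons. Sgk1, a kinase induced by corticosteroids, was at 18.8 to 40.2 FPKM in NP and 15.6 to 129 FPKM at dpc16, with limma adjusted p of 0.86, 0.40 and 0.31 in zones 1, 2 and 3, or 0.694, 0.0437 and 0.0396 without the libraries with Y-linked RNA. Per1, a clock gene with a glucocorticoid response element, lay between 0.262 and 34.5 FPKM in NP and 9.94 and 24.3 FPKM at dpc16. Zbtb16, a zinc finger factor induced by the receptor, lay between 2.67 and 29.2 FPKM in NP and 3.49 and 13.0 FPKM at dpc16, and neither gene passed. Nr3c2, the mineralocorticoid receptor, which binds the same hormones, lay between 3.86 and 14.1 FPKM in all libraries and passed in none of the 9 comparisons.

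Across the lobule, 2 of the 63 pathway genes passed in NP, 2 at dpc8 and 3 at dpc16 for zone 1 against zone 3, with 7, 8 and 11 at an unadjusted p under 0.05, or 11.1%, 12.7% and 17.5% beside 8.02%, 12.2% and 7.86% of all genes. The share of all genes that passed the adjusted threshold was 1.34%, 1.61% and 1.55%. A fit that blocked on replicate numbers, read as pairs of zones at dpc16, called 8 of the 63 there, beside 2.65% of all genes. Sds, serine dehydratase, a glucocorticoid-induced enzyme that is also on the periportal marker list, was higher in zone 1 by 7.10 ± 0.60 in NP, 6.13 ± 0.60 at dpc8 and 7.65 ± 0.60 at dpc16 (limma adjusted p = 7.8e-08, 8.3e-07 and 2.1e-08). Akr1c6, a hydroxysteroid dehydrogenase, was lower in zone 1 by -2.42 ± 0.57, -2.65 ± 0.57 and -2.92 ± 0.57 (limma adjusted p = 0.031, 0.013 and 0.0045). It is 1 of a family of similar genes, and its call was lost in NP without any single library other than replicate 3 of zone 1, at dpc8 without replicates 1 or 2 of zone 1 or 3 of zone 3, and at dpc16 without replicate 2 of zone 1. Srd5a1, the steroid 5-alpha-reductase that starts hormone inactivation, was higher in zone 1 at dpc16, at 19.3 to 36.9 FPKM against 4.31 to 4.62 FPKM (2.48 ± 0.56, limma adjusted p = 0.016), a call lost without any single library other than replicate 2 of zone 1. Its means in NP were 41.0 FPKM in zone 1 and 17.9 FPKM in zone 3.

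Beside Serpina16, the list of other clade A serpins held Serpina10, Serpina11 and Serpina12 as tested genes. None of these 3 passed limma's threshold at dpc16 against NP in any zone, but their groups were apart and higher in zone 1, where 17.4% of all genes were apart. In zone 2 none of these 3 was apart (17.4% of all genes), and in zone 3 Serpina11 was (16.7%). Serpina11 was at 21.6 to 45.5 FPKM in NP and 89.2 to 117 FPKM at dpc16 in zone 1. Gc, the vitamin D-binding protein, was at 2588 to 5586 FPKM in NP and 7397 to 8240 FPKM at dpc16 in zone 1, and albumin was apart and higher in zones 1 and 3. Neither passed limma's threshold, with adjusted p of 0.356, 0.930 and 0.936 for Gc and 0.107, 0.265 and 0.0528 for Alb in zones 1, 2 and 3. Serpina7, the thyroxine-binding globulin, was at 2.01 FPKM or less in every zone 1 library and at 6.85 to 22.8 FPKM in zone 3. Its zone 1 minus zone 3 difference was -3.41 ± 0.57 in NP, -2.81 ± 0.57 at dpc8 and -3.01 ± 0.57 at dpc16 (limma adjusted p = 0.0011, 0.0085 and 0.0036), with the dpc8 call lost without replicate 1 of zone 1 or replicate 3 of zone 3. It passed in no comparison of a pregnant stage with NP, and its groups overlapped there. Ttr, transthyretin, was lower at dpc16 than in NP by -1.94 ± 0.38 in zone 2 and -1.53 ± 0.38 in zone 3 (limma adjusted p = 0.0056 and 0.046), the latter lost without any single one of its 6 libraries. Its means were 3671 FPKM in NP and 1062 FPKM at dpc16 in zone 2. Serpina12, vaspin, was at 4.43 to 14.3 FPKM in zone 1 and 0.0629 to 0.191 FPKM in zone 3 at dpc16, a difference of 2.98 ± 0.44 (limma adjusted p = 0.00016). Albumin itself made up 3.71% to 12.0% of the FPKM sum in NP, 4.20% to 10.7% at dpc8 and 7.98% to 21.0% at dpc16.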

How the data were processed

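Libraries were grouped by stage and zone from their titles. The authors made libraries with a KAPA RNA HyperPrep Kit with RiboErase, trimmed single-end reads with cutadapt, aligned them to mm10 with HISAT2 2.1.0, used uniquely mapped reads on protein-coding GENCODE genes, and deposited FPKM made with Cufflinks 2.2.1 (Cuffdiff), 1 value for each gene and library. FPKM depends on the other genes of a library, so an abundant transcript lowers the rest, and on the transcript length. No counts were given, so depth was estimated from the steps of low values in single-transcript genes, taking 200 bases off the length, with a tolerance of 0.1 read and up to 4 reads: 7350000 to 32540000 reads, median 16060000. Positions came from a GENCODE annotation of the same build, in which 21806 IDs matched.

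Genes that reached 1 FPKM in 3 or more libraries were tested on log2(FPKM + 1), which understates changes of low genes, in 1 limma fit (limma 3.58.1, R 4.3.3) of all 9 groups. The p-values were adjusted by Benjamini-Hochberg within each comparison over the 12952 genes, with a threshold of 0.05. Figures and ranges used Python 3.11.15, numpy 2.4.6, pandas 2.3.3 and matplotlib 3.10.9. The members and lists were chosen with earlier results of these data known, and the neighbour window of 200 kb and the promoter letters after their values were seen. Named genes were up to 4 called per direction and list, 7 named whatever their values, the 5 most correlated with Serpina6 and the 3 most correlated with each other member. The fit was tested on simulated data for dpc16 against NP in zone 1. It recovered 73 of 100 genes with a true log2 change of 2 and 22 of 100 with a change of 1. It also called 7 of 12752 unchanged genes. A gene that did not pass is therefore not shown to be unchanged. Alternatives were 9 other settings and leaving out each library.

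Replicate numbers were checked by correlating deviations from group means between libraries with the same number. All 9 correlations between zones at dpc16 were over 0.1 (0.263 to 0.863, median 0.358), so same-numbered zones were read as pairs there. Replicate 3 had the highest connective tissue mean of each zone at dpc16, at 3.83, 6.84 and 6.64 in zones 1, 2 and 3. Such a shared makeup can raise these correlations, so they cannot show that a number marks 1 animal. Correlations over 0.1 were 4 of 9 between zones in NP, 5 of 9 at dpc8, 7 of 9 between dpc8 and NP and 3 of 9 between dpc16 and NP. None of these were read as pairs. As libraries of different stages reached 7 of 9, this count neither establishes nor excludes pairs.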

Additional observations from a re-analysis of the deposited data

Results flagged for a closer look

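For Ncoa2, a coactivator of the glucocorticoid receptor, the dpc16 libraries of zone 1 lay above those of NP (0.41 on the log2 scale) and those of zone 3 lay below them (-0.66), without overlap in either zone. For Nr3c2, the mineralocorticoid receptor, the dpc8 libraries lay above those of NP in zone 1 (0.53) and below them in zone 3 (-0.51), without overlap in either zone. Both genes were found by looking through the members and the 63 pathway genes for groups apart in opposite directions. Of all genes, 17.4% and 16.7% were apart between dpc16 and NP in zones 1 and 3, and 6.52% and 9.81% between dpc8 and NP. Neither gene passed limma's adjusted threshold in these comparisons. The differences between the zones in these effects were not tested.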

How the results depend on the processing

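Under other settings, 477 member differences moved by less than the spread between replicates and 9 by more. The Serpina6 difference of dpc16 and NP in zone 1 became 5.93 with the same sum and 5.68 after quantile normalization. Leaving out single libraries gave 6.06 to 6.91 in zone 1, 5.41 to 6.20 in zone 2 and 4.24 to 4.89 in zone 3, and zone 1 minus zone 3 gave -1.84 to -0.93 in NP, -1.90 to -1.59 at dpc8 and 0.27 to 0.60 at dpc16. The 63 pathway genes called at dpc16 numbered 2, 8 and 4 in zones 1, 2 and 3 with the same sum, 5, 6 and 6 with array weights, 1 and 4 in zones 1 and 3 without the libraries with Y-linked RNA, 1 in zone 3 after quantile normalization, 3 in zone 3 with a connective tissue covariate and 0 in zone 2 with the compared groups alone. The calls over all genes moved with them, from 177, 345 and 171 to 735, 1136 and 623 with the same sum and 667, 1101 and 776 with array weights. Zone 1 against zone 3 gave 7 at dpc8 and 6 at dpc16 with array weights, and 1 in NP with the compared groups alone. With the replicate number as a block the counts for dpc16 were 2 in zone 1 and 3 in zone 3. For zone 1 against zone 3 they were 6 at dpc8 and 8 at dpc16 (459 and 343 over all genes, against 208 and 201 without the block). Only the zones of dpc16 were read as pairs by number. Leaving out single libraries gave 0 to 3 in zone 2 at dpc16 (0 without replicate 3 of NP or replicates 1 or 2 of dpc16, 1 without replicate 2 of NP), 0 to 2 in zone 3 at dpc16 (2 without replicate 3 of dpc16), and for zone 1 against zone 3 1 to 2 in NP (1 without replicates 1 or 2 of zone 1 or any of zone 3) and 1 to 2 at dpc8 (1 without replicates 1 or 2 of zone 1 or replicate 3 of zone 3). The cause of these changes was not tested. Of the checks on calls of listed genes, 37 of 120 lost the call when single libraries were left out and 15 of 180 under other settings. These checks include Serpina16 at dpc16 against NP, for which no test is given because it passed the filter through dpc16. Among the genes named whatever their values, 10 checks under other settings gained a call and 557 did not. The gained calls include those of H6pd and Sgk1 given above. Without counts, the precision of low values could be judged only from the estimated depth.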

Other observations

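Zbtb16, a zinc finger factor induced by the receptor, was at 20.1 to 29.2 FPKM in replicate 1 of the 3 NP zones, 2.67 to 5.76 in replicate 2 and 5.04 to 10.0 in replicate 3. Arntl, a core clock gene, was at 0.642 to 3.98 FPKM in replicate 1 and 14.0 to 16.9 in replicate 2 of NP. Dbp was at 1.04 FPKM in replicate 3 of NP zone 2 and at 83.9 and 106 FPKM in replicate 3 of zones 1 and 3.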
